A study of Homo sapiens with 12 samples.

Results

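The MYC network is described here through 10 genes: the activators MYC, MYCN and MYCL, their obligate partner MAX, the opposing repressors MXD1, MXD4 and MXI1, and the growth genes NCL, NPM1 and ODC1. They were chosen by symbol, as 10 of the 58721 genes in the count table, and all 10 were among the 21013 genes abundant enough to be tested. The libraries were 12 RNA-seq libraries of EW8 and TC71, established cell lines from Ewing sarcoma, a bone and soft tissue tumor of young people that is driven by the fusion protein EWS-FLI1. Every library came from cells that carry c-Jun and c-Fos, joined by a self-cleaving peptide, under the TRE3G promoter and an EF1 alpha-driven Tet-On 3G transactivator. Each line gave 3 libraries of vehicle (DMSO) cells and 3 of cells in which doxycycline (2000 ng/ml) switched on both subunits of the AP-1 transcription factor, all for 72 h. The labels call the vehicle cells wild type although they hold both constructs. No doxycycline-treated cells without the transgenes were used here, so doxycycline itself and c-Jun with c-Fos cannot be told apart. The sources used here do not say that replicates were separate cultures, so p-values measure the spread between these libraries, which may be technical.

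MYC, MYCN and MYCL encode related transcription factors that bind DNA only as dimers with MAX. The dimers recognize the E-box CACGTG and raise genes for ribosome production, nucleotide and polyamine synthesis and translation. The MXD proteins and MXI1 also pair with MAX, occupy the same E-boxes and recruit corepressors, so cells read the balance of both families. Nucleolin (NCL) and nucleophosmin (NPM1) are abundant nucleolar proteins of ribosome assembly, and ornithine decarboxylase (ODC1) makes putrescine at the entry of the polyamine pathway. NCL, NPM1 and ODC1 are textbook MYC targets. The comparisons below follow the transcripts of this network when c-Jun and c-Fos were induced.

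E-boxes near the start sites were counted on hg38, the build of the files, because the network acts through these letters. Within 1000 bases on each side of the GENCODE release 44 canonical start, 6 of the 10 genes held CACGTG, a palindrome that reads the same on both strands, at 15 positions in all. Over 14867 tested protein-coding genes, 31.1% held at least 1 match and the mean was 0.399 matches a gene. NCL held 5 matches, and 0.101% of these genes held 5 or more. MAX and ODC1 held 3 each, a number reached or passed by 1.3% of genes. NPM1 held 2, MXD1 and MXD4 held 1, and no CACGTG lay in this window of MYC, MYCN, MYCL or MXI1. The AP-1 letters TGACTCA and TGAGTCA, each the reverse complement of the other, were in the same window of 19% of genes and of 0 of the 10 members. A match is a string of letters and not a measured binding site.

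The sequences with matches at the growth genes are shown because these genes differed in their response, with the E-box in capitals and the gene's strand 5′ to 3′. The matches of NCL lay after the canonical start in exons of other NCL transcripts, on the minus strand at chr2:231463998-231464023, chr2:231463974-231463999, chr2:231463842-231463867, chr2:231463785-231463810 and chr2:231463760-231463785, in the order printed. Those of NPM1 were 11 bases apart in an intron on the plus strand, at chr5:171388549-171388604. Those of ODC1 lay 493 bases upstream at chr2:10448790-10448845 and 287 and 321 bases after the start at chr2:10448026-10448051 and chr2:10447992-10448017, minus strand, the first of these in an intron and the last in an exon of another ODC1 transcript.
NCL a: actcctgacgCACGTGcccgggagcg
NCL b: cgcggcctgcCACGTGggccgcgccg
NCL c: ggcaagccgaCACGTGgtgggccccg
NCL d: gtgtttcgggCACGTGgtggcctacc
NCL e: caggtaccccCACGTGgccgcgccgc
NPM1 pair: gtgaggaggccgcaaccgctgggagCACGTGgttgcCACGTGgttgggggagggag
ODC1 upstream: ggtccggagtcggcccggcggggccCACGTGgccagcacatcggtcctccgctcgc
ODC1 near: gggccccgggCACGTGtgcggcgcgc
ODC1 far: cctgcggagaCACGTGgtcgccgagc

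The network genes themselves carried E-boxes upstream at MAX, MXD1 and MXD4, shown because these genes encode the shared partner and the opposing repressors. The MAX matches shown began 750 and 349 bases before the start on the minus strand (chr14:65103237-65103292 and chr14:65102836-65102891). The match of MXD1 began 824 bases upstream on the plus strand (chr2:69914260-69914315), and that of MXD4 began 238 bases upstream on the minus strand (chr4:2262317-2262372).
MAX far: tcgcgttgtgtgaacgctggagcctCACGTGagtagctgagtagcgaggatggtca
MAX middle: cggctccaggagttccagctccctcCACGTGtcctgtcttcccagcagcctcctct
MXD1: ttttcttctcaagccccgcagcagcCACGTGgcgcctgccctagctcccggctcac
MXD4: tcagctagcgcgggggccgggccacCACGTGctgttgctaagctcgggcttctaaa

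In the shorter RefSeq promoter windows of GRCh38.p14, from 250 bases before to 50 after each start, 14 windows were listed for 9 members. MYC is named only. An E-box was in 7.26% of all 35116 windows, and among the members in the window of MXD4 and in the second window of ODC1. The AP-1 letters were in 4.95% of all windows and the cyclic AMP element TGACGTCA in 1.85%, and neither was in a window of these members.

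Total counts per library ran from 42860665 to 60853649, and each pair of reads could add 2 counts, 1 for each mate. The induction was seen in every library: JUN rose from at most 25.35 to at least 422.2 CPM (counts scaled to a library of equal size, with TMM factors) and FOS from at most 37.57 to at least 998.7 CPM. All 6 Ewing sarcoma markers examined (CD99, NKX2-2, NR0B1, STEAP1, CCND1 and PRKCB) were at or above 1 CPM in each of the 4 groups, with sums of 2319 to 2832 CPM. Of 8 markers of other cell types, summed CPM was 68.39 to 78.31 in EW8 vehicle and 113.5 to 121.8 in EW8 doxycycline libraries, mostly PTPRC and PECAM1. In TC71 it was 0.267 to 1.224 with vehicle and 15.58 to 16.88 with doxycycline, mostly EPCAM and PECAM1, while MYOG was at 0 in all libraries. The part of these markers in the results was not tested. The largest distances between replicates were those of TC71 vehicle replicate 1 from replicates 2 and 3 (root mean square log2 difference 0.694 and 0.735, against 0.575 to 0.676 for the other pairs). In bulk RNA, fewer cells with a transcript and less of it per cell cannot be told apart, and CPM does not show a change in total RNA per cell.

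With doxycycline, MXD1 rose and MYCN, NCL and NPM1 fell in both lines at an adjusted p under 0.05, the limit used for "passed" (edgeR quasi-likelihood test, Benjamini-Hochberg over all tested genes). MYC fell and MXD4 and ODC1 rose in TC71, and MAX rose in EW8. In EW8, 2 of the 10 genes were higher, where 21.9% of all tested genes were, and 3 were lower, against 22%. In TC71, 3 were higher against 25.1%, and 4 were lower against 20.4%. Most members are abundant, though MYCN and MYCL are not. Among all genes with a mean of at least 10 CPM, 27% were higher and 35.6% lower in EW8, and 34% and 32.9% in TC71. The member counts lie near those shares. With the study's added limit of an absolute log2 fold change over 1, MXD1 was higher in EW8 (11.4% of all genes) and MXD1 and MXD4 in TC71 (12.3%). MYCN alone was lower under that limit in EW8 (3.38% of all genes) and in TC71 (3.67%). The median log2 fold change of all tested genes was -0.03 in EW8 and 0.00 in TC71.

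**Figure D1:**
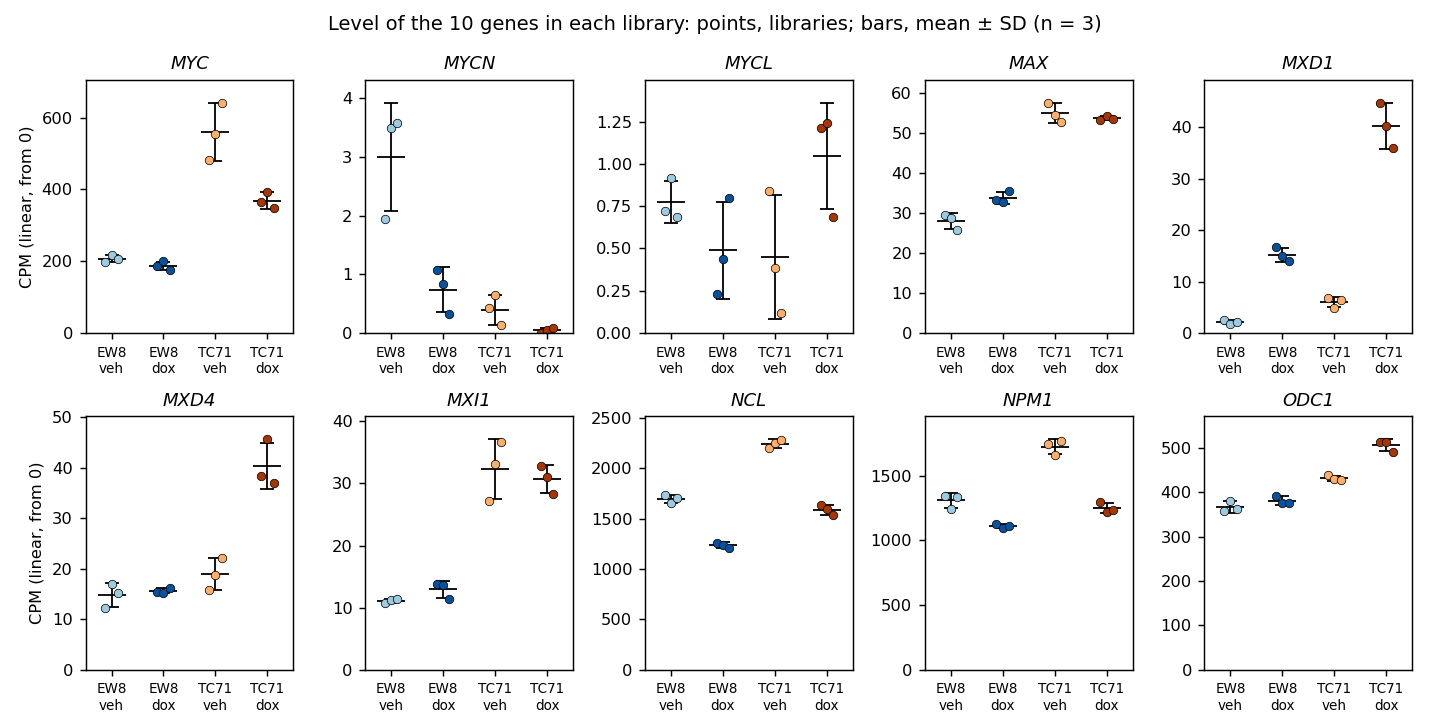
Level of each of the 10 genes in CPM (linear axes from 0, scaled separately) in the 12 libraries, as points, with the mean and SD of 3 libraries per group. MXD1 was 14 to 16.72 CPM with doxycycline against 1.831 to 2.616 with vehicle in EW8, and 35.9 to 44.77 against 4.928 to 6.836 in TC71.

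Among the activators, MYC (ENSG00000136997.17, chromosome 8, 127735434 to 127741434, plus strand) was by far the most abundant in both lines. In EW8 it was at 197.1, 216.5 and 206.8 CPM with vehicle and at 185.9, 199.6 and 175.5 CPM with doxycycline. The EW8 ranges overlapped, and the log2 fold change of -0.14 (SE 0.08, 95% interval -0.32 to 0.03) did not pass (adjusted p = 0.175, edgeR). In TC71 it was at 481.2, 554.7 and 641.3 CPM with vehicle and at 364.8, 393.5 and 348.1 CPM with doxycycline. Every TC71 doxycycline library lay below every vehicle library, and the fitted log2 difference was -0.60 (SE 0.08; edgeR adjusted p = 7.6e-06). MYC thus retained 0.66 of its vehicle level in TC71. The response differed between the lines by a log2 of -0.46 (SE 0.12, adjusted p = 0.00933 for the interaction in edgeR). In EW8 the call depended on the processing: MYC passed with library size as the only scaling (log2 -0.20, adjusted p = 0.0354) and without the filter on low counts (log2 -0.15, adjusted p = 0.0456).

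MYCN (ENSG00000134323.11, chromosome 2, 15940564 to 15947007, plus strand), the family member best known from neuroblastoma, was rare in both lines and fell in both. In EW8 it had 86, 160 and 199 counts with vehicle (1.94, 3.487 and 3.575 CPM) and 60, 42 and 14 with doxycycline (1.074, 0.83 and 0.32 CPM). In TC71 there were 22, 40 and 7 counts with vehicle and 0, 2 and 4 with doxycycline. The ranges in CPM did not overlap in either line. The fit put the EW8 doxycycline level at 0.25 of vehicle (log2 interval -3.08 to -0.92, edgeR adjusted p = 0.00367) and the TC71 log2 difference at -3.04 (SE 0.79, adjusted p = 0.00395). Because the TC71 doxycycline libraries held 6 counts in all, about 3 read pairs, the size of the fold is uncertain. From the pairs, TC71 vehicle was 9.26 times doxycycline, with a counting interval of 2.91 to 47.1. In EW8 the ratio was 4.11 (3.06 to 5.58). These intervals cover counting error only and leave out the spread between libraries. Mates and PCR copies are also not independent molecules.

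MYCL (ENSG00000116990.10, chromosome 1, 39895426 to 39902256, minus strand), the family member first found in lung cancer, was at or below 1.243 CPM in all libraries. In EW8 the vehicle libraries held 32, 42 and 38 counts and the doxycycline libraries 13, 22 and 35. In TC71 the vehicle libraries held 44, 24 and 6 and the doxycycline libraries 50, 52 and 30. The groups overlapped in both lines, and neither the log2 of -0.67 in EW8 (adjusted p = 0.384) nor that of 1.22 in TC71 (adjusted p = 0.0955, edgeR) passed. From the read pairs, vehicle over doxycycline was 1.72 in EW8 (counting interval 1.11 to 2.7) and 0.458 in TC71 (0.298 to 0.696). These intervals exclude 1 only because they leave out the spread between libraries, so they are not read as a change. The TC71 call depended on 1 library: without vehicle replicate 1, which held 44 of the 74 vehicle counts, it was 1.94 (adjusted p = 0.0103), with a difference between the lines of 2.57 (adjusted p = 0.0179).

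MAX (ENSG00000125952.18, chromosome 14, 65006174 to 65102695, minus strand) is the partner that both families need. In EW8 it was at 29.61, 28.68 and 25.79 CPM with vehicle and at 33.29, 32.69 and 35.49 CPM with doxycycline. These groups did not overlap, and MAX rose by 0.27 on the log2 scale (SE 0.07, edgeR adjusted p = 0.00525). In TC71 the range was 52.73 to 57.61 CPM with vehicle and 53.31 to 54.34 CPM with doxycycline, a log2 of -0.03 (95% interval -0.18 to 0.12, adjusted p = 0.751). The responses differed by -0.31 (SE 0.10, adjusted p = 0.0434, edgeR interaction). That difference did not pass without the filter on low counts (adjusted p = 0.0975), nor without any 1 of EW8 vehicle replicate 2, TC71 vehicle replicate 2 and the TC71 doxycycline replicates 1, 2 and 3 (adjusted p = 0.0515, 0.0668, 0.0917, 0.07 and 0.0803 in that order).

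Among the repressors, MXD1 (ENSG00000059728.10, chromosome 2, 69897688 to 69942945, plus strand), a gene that rises as many cell types stop dividing and differentiate, had the largest response of the 10 genes that was not built on a few counts. In EW8 it was at 2.616, 1.831 and 2.227 CPM with vehicle and at 16.72, 14.9 and 14 CPM with doxycycline. In TC71 it was at 6.836, 4.928 and 6.482 CPM with vehicle and at 44.77, 40.17 and 35.9 CPM with doxycycline. The lowest doxycycline value of either line lay above the highest vehicle value of both. MXD1 rose 6.84-fold in EW8 (log2 2.77 with SE 0.16, edgeR adjusted p = 5.99e-11) and 6.64-fold in TC71 (log2 2.73 with SE 0.14, adjusted p = 1.79e-11). Their difference was -0.04 with a 95% interval of -0.47 to 0.39 (adjusted p = 0.941). Of the exon bases of MXD1, 237 (3.73%) are shared with SNRNP27 on the same strand, and reads there were not assigned to either gene. SNRNP27, which encodes a splicing protein, rose by a log2 of 0.24 (SE 0.07) in EW8 and 0.27 (SE 0.07) in TC71.

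MXD4 (ENSG00000123933.16, chromosome 4, 2247432 to 2262294, minus strand) responded in TC71. It was at 15.77, 18.75 and 22.18 CPM with vehicle and at 38.4, 45.6 and 36.99 CPM with doxycycline there, 2.13-fold more (log2 1.09 with SE 0.13, edgeR adjusted p = 1.24e-06). In EW8 it was at 12.29, 16.89 and 15.25 CPM with vehicle and at 15.45, 15.26 and 16.28 CPM with doxycycline. The EW8 groups overlapped and the log2 of 0.08 (95% interval -0.20 to 0.36) did not pass (adjusted p = 0.676). The difference between the lines was 1.01 (SE 0.18, adjusted p = 0.000611, edgeR interaction).

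MXI1 (ENSG00000119950.20, chromosome 10, 110207605 to 110287365, plus strand), also called MXD2, passed in neither line. Its EW8 values were 10.67, 11.16 and 11.35 CPM with vehicle and 13.8, 13.66 and 11.37 CPM with doxycycline, which did not overlap but lay close (log2 0.23, SE 0.12, adjusted p = 0.128, edgeR). In TC71 vehicle libraries held 27.17, 33.14 and 36.6 CPM and doxycycline libraries 32.77, 31.02 and 28.28 CPM, a log2 of -0.07 (SE 0.11, adjusted p = 0.634). The lowest TC71 vehicle value was replicate 1, and without it the responses passed in both lines and in opposite directions (EW8 log2 0.27, adjusted p = 0.0242, and TC71 log2 -0.26, adjusted p = 0.0345), with a difference of -0.54 (adjusted p = 0.00569). In EW8 the rise also passed with at least 10 counts in every library (0.0483), with only the 2 groups in the fit (0.0402) and without EW8 doxycycline replicate 3 (0.0409).

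**Figure D2:**
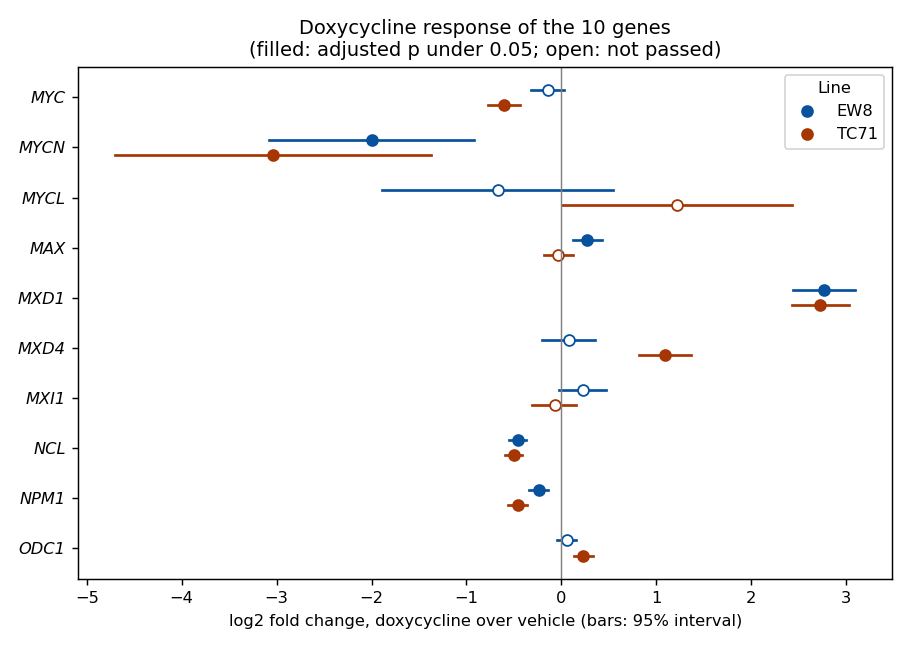
Fitted log2 fold change of doxycycline over vehicle for the 10 genes in EW8 (blue) and TC71 (brown), with 95% intervals. Filled points passed at an adjusted p under 0.05, and the intervals of MXD1 in the lines lie on each other while those of MYC and MXD4 lie apart.

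The levels of the families were set side by side per kilobase of exon (RPKM, CPM divided by the exon length in kilobases), a scale that allows for genes of different length. The length covers all annotated exons of a gene, used by these cells or not (3001 bases for MYC, 6351 for MXD1 and 7058 for MXD4). Levels compared between genes depend on it. MYC made up between 97.9% and 99.96% of the summed MYC, MYCN and MYCL RPKM in the 12 libraries. MYCN held a mean of 1.63% in EW8 vehicle and 0.449% in EW8 doxycycline libraries. In TC71 it held 0.0862% and 0.0147%. MYCL held at most 0.269% in any library. With 3 libraries against 3, an exact permutation test cannot go below p = 0.1, so these shares are given as values.

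The sum of MXD1, MXD4 and MXI1 went from 4.849 ± 0.335 to 7.423 ± 0.421 RPKM (SD, n = 3) in EW8 and from 10.65 ± 1.45 to 18.72 ± 1.46 RPKM in TC71. Its makeup shifted as well. MXD1 was the least abundant of the repressors in TC71 vehicle cells (0.958 RPKM, against 2.678 for MXD4 and 7.012 for MXI1). With doxycycline it stood at 6.343 RPKM beside 5.714 and 6.662. The summed activators stood at 14.89, 14.43 and 14.15 times the summed repressors in EW8 vehicle libraries and at 7.984, 8.956 and 8.42 times with doxycycline. In TC71 the ratio stood at 17.45, 17.43 and 17.66 in vehicle libraries and at 6.213, 6.732 and 6.821 in doxycycline libraries. The ratio was lower in every doxycycline library than in every vehicle library. These sums describe transcripts of the listed members and carry no test. MNT, MXD3 and MGA are not in them, though their levels were not small beside the summed repressors. In EW8 vehicle and doxycycline libraries MNT was at 4.581 and 4.755 RPKM, MXD3 at 3.164 and 2.011 and MGA at 5.179 and 3.448. In TC71 they were at 2.927 and 2.864, 1.245 and 0.72, and 7.306 and 6.007. MXD3 (log2 -0.65 in EW8 and -0.79 in TC71) and MGA (-0.59 and -0.28) fell, and MNT passed in neither line. A ratio with these genes was not computed and would fall less in each line. The fall of the ratio is thus stated for the listed members only.

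**Figure D3:**
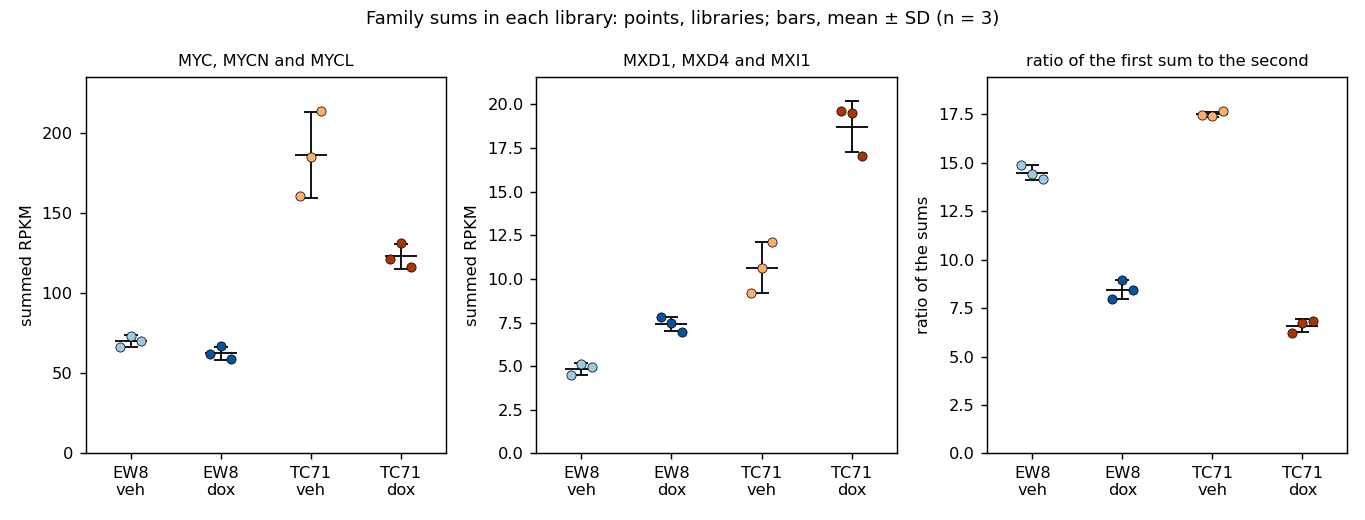
Summed RPKM of MYC, MYCN and MYCL, summed RPKM of MXD1, MXD4 and MXI1, and the ratio of the first sum to the second in each library, with mean and SD of 3 libraries (axes from 0). The mean ratio was 14.49 and 8.453 in EW8 vehicle and doxycycline libraries and 17.51 and 6.589 in those of TC71. MNT, MXD3 and MGA are not in the sums.

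The growth genes were the most abundant of the 10 in EW8, and 5 of their 6 responses, all but that of ODC1 in EW8, passed although they were small. NCL (ENSG00000115053.15, chromosome 2, 231453531 to 231483641, minus strand) was at 1737, 1658 and 1704 CPM in EW8 vehicle and at 1263, 1243 and 1210 CPM in EW8 doxycycline libraries. In TC71 it was at 2203, 2248 and 2286 CPM with vehicle and at 1635, 1599 and 1533 CPM with doxycycline. Groups did not overlap in either line, and the log2 difference was -0.46 in EW8 (SE 0.04, edgeR adjusted p = 6.84e-08) and -0.50 in TC71 (SE 0.04, adjusted p = 1.69e-08). The EW8 log2 of MYC had the same sign (-0.14, 95% interval -0.32 to 0.03) but did not pass, and the 2 genes were not compared in a test. The difference between the lines was -0.04 (95% interval -0.17 to 0.08, adjusted p = 0.71), and -0.18 (adjusted p = 0.00946) without TC71 vehicle replicate 1.

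NPM1 (ENSG00000181163.13, chromosome 5, 171387116 to 171411137, plus strand) fell in both lines as well. Its EW8 values were 1347, 1241 and 1339 CPM with vehicle and 1127, 1096 and 1110 CPM with doxycycline. TC71 libraries held 1743, 1658 and 1768 CPM with vehicle and 1298, 1223 and 1238 CPM with doxycycline. The groups did not overlap, and the log2 differences were -0.24 in EW8 (SE 0.05, edgeR adjusted p = 0.000397) and -0.46 for TC71 (SE 0.05, adjusted p = 1.78e-07). TC71 thus fell further, with an interaction of -0.22 (SE 0.07, adjusted p = 0.0233), a difference that did not pass without EW8 vehicle replicate 2 (adjusted p = 0.0586) or TC71 doxycycline replicate 2 (adjusted p = 0.06). NPM1 has 49 pseudogenes in the table with 29032 counts over all libraries beside 802621 for NPM1 itself, and reads that map to several copies were left out by the counter, so its level is uncertain.

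ODC1 (ENSG00000115758.12, chromosome 2, 10439968 to 10448504, minus strand) did not follow the nucleolar genes. EW8 values were 357.9, 381 and 360.9 CPM with vehicle and 392, 376.1 and 375.3 CPM with doxycycline, overlapping ranges with a log2 of 0.06 (95% interval -0.04 to 0.15, adjusted p = 0.367, edgeR). It passed with at least 10 counts in every library (0.12, adjusted p = 0.0406), with only the 2 groups in the fit (0.10, adjusted p = 0.0491) and without TC71 vehicle replicate 1 (0.10, adjusted p = 0.0427). TC71 values were 437.5, 428.6 and 427.8 CPM with vehicle and 512.6, 513.8 and 491.1 CPM with doxycycline. There ODC1 rose by a log2 of 0.23 (SE 0.05, adjusted p = 0.000469), with no overlap. MYC fell in the same libraries, and a link between the 2 genes was not tested. The difference between the lines, 0.17 (SE 0.07), did not pass (adjusted p = 0.0746).

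The same genes were then compared between the lines. With vehicle, 8 of the 10 genes were higher in TC71 than in EW8 (28.2% of all tested genes were) and MYCN was lower (33.5% were). With doxycycline, 8 were again higher (30.2%) and MYCN again lower (32.3%), and MYCL passed in neither. These comparisons use the same libraries as the doxycycline responses and are not independent of them. MYC was 2.7-fold higher in TC71 with vehicle (log2 1.43, SE 0.08, adjusted p = 4.44e-11, edgeR) and 1.97-fold higher with doxycycline. MXI1 was 2.92-fold higher with vehicle, MXD1 2.73-fold and MAX 1.96-fold. The vehicle difference of MXD4 (log2 0.35, adjusted p = 0.0269) lay in overlapping ranges, and did not pass with only the 2 groups in the fit (adjusted p = 0.0537), without EW8 vehicle replicate 1 (0.155) or without TC71 vehicle replicate 3 (0.123). The growth genes differed less, at 1.32-fold for NCL, 1.32-fold for NPM1 and 1.18-fold for ODC1. With doxycycline the difference of NPM1 was 1.13-fold (adjusted p = 0.00335) and did not pass with upper-quartile scaling (0.0685) or without EW8 vehicle replicate 3 (0.066) or EW8 doxycycline replicate 3 (0.138). Under the limit on the fold, MYC, MXD1 and MXI1 were higher with vehicle (11.6% of all genes) and MXD1, MXD4 and MXI1 with doxycycline (12.6%). MYCN was lower under both conditions (18.9% and 18.4% of all genes).

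Line differences in the response passed for 4 of the 10 genes. MXD4 was higher in TC71 (12.2% of all tested genes were), and MYC, MAX and NPM1 were lower (7.07%). Among all genes with a mean of at least 10 CPM the shares were 19.5% and 10.5%. Under the limit on the fold MXD4 alone was counted as higher (4.18% of all genes) and no member as lower (2.87% of all genes). The numbers of genes were 1 higher and 3 lower, and without TC71 vehicle replicate 1 they were 2 higher and 5 lower, with MYCL, MXI1 and NCL added. Without EW8 vehicle replicate 2, or without TC71 doxycycline replicate 2, 1 gene was lower.

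Levels of the 10 genes per kilobase spanned a wide range. NPM1 was the highest in each group (means of 290.1 to 450 RPKM), followed by NCL (178.8 to 324.1 RPKM). In EW8, ODC1 came next (123.5 RPKM with vehicle) and then MYC (68.91 RPKM). In TC71 vehicle cells MYC (186.3 RPKM) stood above ODC1 (145.3 RPKM), and with doxycycline the order turned, at 122.9 RPKM for MYC and 170.4 RPKM for ODC1. MAX followed at 6.327 to 12.42 RPKM. In EW8 vehicle cells MXI1 (2.401 RPKM) and MXD4 (2.098 RPKM) were close.

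The wider pathway was read from 6 lists of growth genes, with 135 of 136 genes tested. They were written from general knowledge but chosen with earlier results of these data known. The shares below describe the lists and are not independent support. Over all 6, 22 genes rose and 75 fell in EW8, and 21 rose and 84 fell in TC71. In percent, 16.3% rose and 55.6% fell in EW8, and 15.6% and 62.2% in TC71. Growth genes are mostly abundant: 120 of the 135 had a mean of at least 10 CPM, and among all 10094 genes of that abundance 27% rose and 35.6% fell in EW8, and 34% rose and 32.9% fell in TC71. The median log2 fold change over the lists was -0.23 in EW8 and -0.32 in TC71, against -0.07 and -0.02 for those abundant genes. Under the fold limit, 1 growth gene was lower in EW8 and 6 in TC71, so most falls were small. Of 12 housekeeping genes, 5 rose and 3 fell in EW8 (41.7% and 25%), and 2 rose and 2 fell in TC71 (16.7% each). B2M, the light chain of class I histocompatibility molecules, rose by 0.69 in EW8 (0.06 in TC71, adjusted p = 0.348), and YWHAZ, a 14-3-3 protein, by 0.49 and 1.12.

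Most genes of the nucleolus and ribosome assembly list fell. Of 40 tested, 28 fell and 1 rose in EW8 (median log2 -0.28), and 35 fell and 1 rose in TC71 (median -0.42). The falls were 70% and 87.5% of the list, against 35.6% and 32.9% of all genes with a mean of at least 10 CPM. Fibrillarin (FBL), the methyltransferase of box C/D small nucleolar RNA complexes, fell from 801.2 ± 26.5 to 540.2 ± 12 CPM in EW8 (log2 -0.57, SE 0.05) and from 321.4 ± 16.9 to 195.4 ± 6.96 CPM in TC71 (log2 -0.72, SE 0.05). WDR12, a partner of PES1 and BOP1 in large subunit assembly, changed by a log2 of -0.68 in EW8 and -0.42 in TC71, and POLR1B, a large subunit of RNA polymerase I, by -0.52 and -0.60. NAT10, the RNA cytidine acetyltransferase, changed by -0.51 and -0.73, each past the test. NOP2, an rRNA methyltransferase, fell in TC71 (log2 -0.75, adjusted p = 0.0304), at 2.236 and 1.327 CPM, and did not pass without TC71 vehicle replicate 2, TC71 doxycycline replicate 2 or TC71 doxycycline replicate 3 (adjusted p = 0.0639, 0.0847 and 0.105). The exceptions were RRP12, an export factor of pre-ribosomes, which rose by 0.57 in EW8, and NOP10, a small protein of box H/ACA complexes, which rose by 0.31 in TC71.

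Nucleotide synthesis moved in 1 direction. Of 22 genes, 18 fell in each line and 0 rose in edgeR, in DESeq2 or at an unadjusted p under 0.05, with medians of -0.39 in EW8 and -0.36 in TC71. The falls were 81.8% in each line, against 35.6% in EW8 and 32.9% in TC71 of all genes with a mean of at least 10 CPM. PAICS, a step of purine synthesis, fell from 660.1 ± 20.7 to 393.5 ± 9.28 CPM in EW8 (log2 -0.75, SE 0.05, adjusted p = 3.48e-10, edgeR). IMPDH1, which commits purines to guanine nucleotides, changed by -0.69 in EW8 and -0.16 in TC71 (not past the test without TC71 vehicle replicate 2, adjusted p = 0.0702, or TC71 doxycycline replicate 3, adjusted p = 0.123), and DHODH, the mitochondrial enzyme of pyrimidine synthesis, by -0.68 and -0.66. In TC71 thymidylate synthase (TYMS) fell from 69.52 ± 3.11 to 32.04 ± 2.61 CPM (log2 -1.12, SE 0.07, adjusted p = 3.15e-10). PFAS, another purine enzyme, changed by -0.49 in EW8 and -0.89 in TC71.

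Translation factors fell less uniformly: 10 of 21 fell and 3 rose in EW8 (median -0.15), and 13 fell and 2 rose in TC71 (median -0.29). Falls were 47.6% of the list in EW8 and 61.9% in TC71, and rises 14.3% and 9.52%. Among all genes with a mean of at least 10 CPM, 35.6% and 32.9% fell and 27% and 34% rose. The EW8 number of falls moved to 5 or 6 without EW8 vehicle replicate 3 (6), or without EW8 doxycycline replicate 1 (6), 2 (5) or 3 (6). EIF4EBP2, a translation repressor that binds EIF4E, changed by -0.65 in EW8 and -0.62 in TC71, and EEF1E1, a scaffold of tRNA synthetases, by -0.39 and -0.53. EIF2B5, a subunit of the exchange factor of eIF2, changed by -0.43 and -0.52, and EIF4B, a helper of the EIF4A helicase, by -0.34 and -0.61. EIF6, which keeps large subunits free, rose by 0.54 in EW8 and 0.66 in TC71, and EIF5 by 0.19 and 0.50. The EIF5 rise in EW8 did not pass with library size as the only scaling (0.13, adjusted p = 0.074). PABPC1, the cytoplasmic poly(A)-binding protein, rose by 0.21 in EW8.

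**Figure D4:**
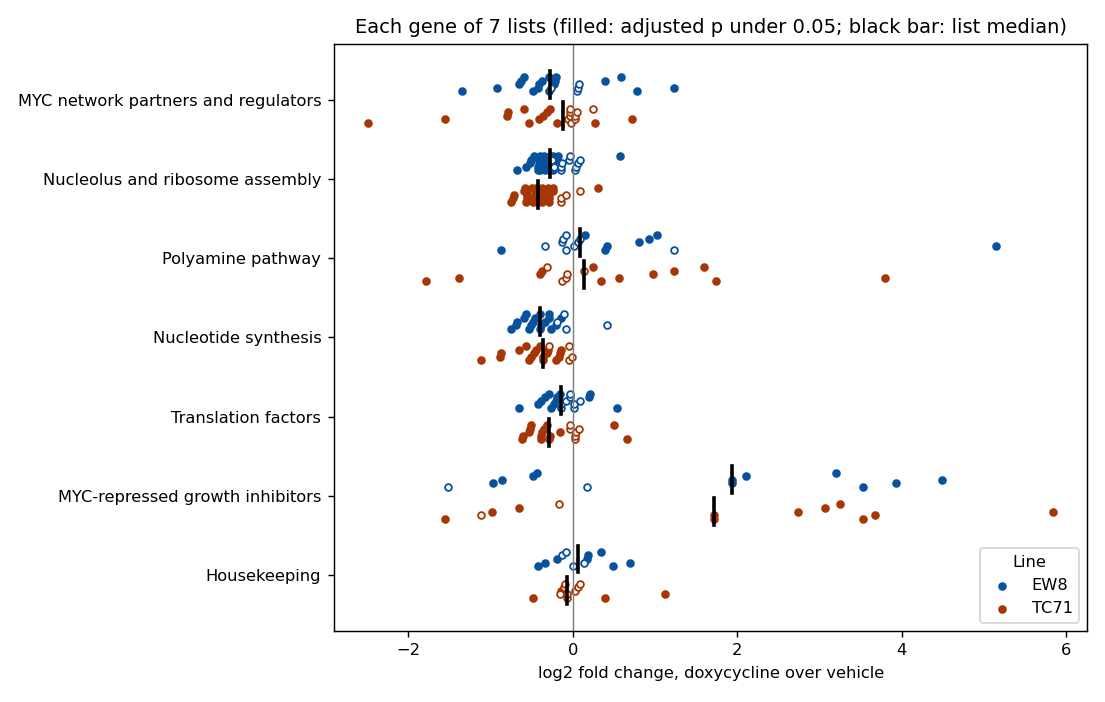
Log2 fold change of doxycycline over vehicle for each tested gene of 7 lists in EW8 (blue) and TC71 (brown), filled where the adjusted p was under 0.05, with the list median as a black bar. The nucleolus medians were -0.28 and -0.42 and the nucleotide synthesis medians -0.39 and -0.36, and the growth inhibitors were spread from -1.55 to 5.84.

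The polyamine pathway around ODC1 was mixed. Of 17 tested genes, 7 rose and 1 fell in EW8 (median 0.08), and 8 rose and 4 fell in TC71 (median 0.14). Rises were 41.2% of the list in EW8 and 47.1% in TC71, and falls 5.88% and 23.5%. Among all genes with a mean of at least 10 CPM, 27% and 34% rose and 35.6% and 32.9% fell. SAT1, the acetyltransferase that marks spermidine and spermine for export and breakdown, rose from 2.043 ± 0.113 to 72.52 ± 3.18 CPM in EW8 (log2 5.15 with SE 0.14, edgeR adjusted p = 2.44e-15). TC71 libraries went from 3.448 ± 0.876 to 48.29 ± 2.34 CPM (log2 3.80 with SE 0.13, adjusted p = 4.27e-14). The rise was smaller in TC71, by a log2 of -1.34 (adjusted p = 4.48e-05, edgeR interaction). SMOX, which oxidizes spermine, rose by 1.02 and 1.74. The other catabolic genes of the list, named after their values were seen, did not pass as higher: PAOX, an oxidase of acetylated polyamines, was at 0.01 and -0.09, and SAT2, a relative of SAT1, was at -0.12 in EW8 and fell in TC71 (log2 -0.38). The synthetic side was mixed: SMS, spermine synthase, rose by 0.92 and 1.23, and SRM, spermidine synthase, fell by 0.40 in TC71 (EW8 log2 -0.08, adjusted p = 0.41). ARG2, a mitochondrial arginase that supplies ornithine, changed by -0.87 and -1.79. The antizyme gene OAZ1, whose protein sends ODC1 to degradation and which was named after its values were seen, was at a log2 of 0.08 in EW8 (adjusted p = 0.268) and rose by 0.34 in TC71. AZIN2, which protects ODC1 from antizyme, rose by 0.80 in EW8 and by 1.59 in TC71, where it was at 0.599 and 1.796 CPM (the EW8 rise did not pass without EW8 vehicle replicate 3, adjusted p = 0.0514, or EW8 doxycycline replicate 1, adjusted p = 0.0552), and DHPS, which uses spermidine to modify EIF5A, fell in TC71 (log2 -1.38, from 2.238 to 0.86 CPM).

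**Figure D5:**
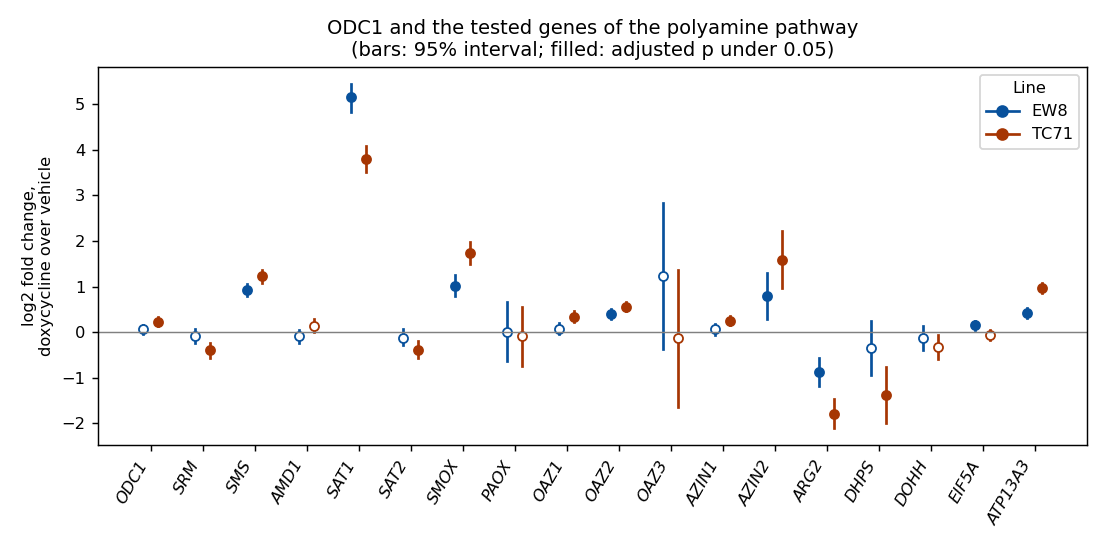
Log2 fold change of doxycycline over vehicle with 95% intervals for ODC1 and the 17 tested genes of the polyamine pathway in EW8 (blue) and TC71 (brown), filled where the adjusted p was under 0.05. ODC1 lies at 0.06 and 0.23 while SAT1 lies at 5.15 and 3.80.

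The list of growth inhibitors, written from general knowledge as genes that MYC represses, was split. Repression by MYC was not tested for any of them. Of 13 genes, 7 rose and 4 fell in EW8 (median 1.93), and 8 rose and 3 fell in TC71 (median 1.72). Rises were 53.8% of the list in EW8 and 61.5% in TC71, against 27% and 34% of all genes with a mean of at least 10 CPM. Falls were 30.8% and 23.1%, near or below the 35.6% and 32.9% of those genes. NDRG1, a stress and differentiation gene, rose from 6.635 ± 0.98 to 149.6 ± 3.66 CPM in EW8 (log2 4.49, SE 0.11) and from 1.459 ± 0.298 to 83.33 ± 4.38 CPM in TC71 (log2 5.84, SE 0.12). NDRG4, of the same family, rose by 3.93 and 3.67. The growth arrest and DNA damage gene GADD45A rose by 3.53 and 3.25, and GADD45B by 1.94 and 3.53. Of the cyclin-dependent kinase inhibitor genes, CDKN1A rose by 3.20 and 1.71 and CDKN2B by 2.11 and 3.06, both named after their values were seen. The genes that fell in both lines were the antiproliferative gene BTG2 (-0.97 and -1.55) and the kinase inhibitor genes CDKN2C (-0.86 and -0.99) and CDKN1B (-0.49 and -0.66). NDRG2, named after its value was seen, was the other gene that fell in EW8 (-0.44). These genes respond to many pathways besides MYC.

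Partners and regulators of MYC were the last list. Of 22 genes, 14 fell and 4 rose in EW8 (median -0.28), and 11 fell and 2 rose in TC71 (median -0.12). Falls were 63.6% of the list in EW8 and 50% in TC71, and rises 18.2% and 9.09%. Among all genes with a mean of at least 10 CPM, 35.6% and 32.9% fell and 27% and 34% rose. SKP2, a ubiquitin ligase component that acts on MYC and on the inhibitor encoded by CDKN1B, fell from 269.2 ± 5.11 to 105.3 ± 4.8 CPM in EW8 (log2 -1.35, SE 0.05, adjusted p = 2.52e-13, edgeR). In TC71 it fell from 220.1 ± 5.93 to 74.89 ± 2.25 CPM (log2 -1.56, SE 0.05, adjusted p = 3.45e-14). TFAP4, a helix-loop-helix target of MYC, changed by -0.92 and -0.80, and MXD3, the family's proliferation-associated member, by -0.65 and -0.79. PIM1, a kinase that stabilizes MYC, rose by 0.78 and 0.72. ZBTB17, which encodes MIZ1, a partner in MYC's repression, rose by 0.58 in EW8, and MLXIP by 0.39 and 0.27. MLXIPL, a glucose-sensing factor of the wider network, rose by 1.23 in EW8 and fell in TC71 (log2 -2.49), where it had 6, 23 and 10 counts with vehicle and 1, 0 and 4 with doxycycline.

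Differences in response between the lines passed for 13 growth genes upward and 16 downward of 135. These were 9.63% and 11.9%, against 12.2% and 7.07% of all tested genes. Among all genes with a mean of at least 10 CPM the shares were 19.5% and 10.5%. The number of growth genes depended on 1 library: without TC71 vehicle replicate 1 it was 8 upward and 54 downward. Upward, it was 5 without EW8 vehicle replicate 3, TC71 vehicle replicate 3 or any 1 of the EW8 doxycycline replicates. Downward, it was 26 without EW8 doxycycline replicate 2 or 3 and 28 without TC71 vehicle replicate 3. No list is therefore said to differ between the lines.

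Genes with the pattern most like that of MYC over the 12 libraries were sought by the root mean square difference of their centred log2 CPM. The search covered 14987 genes, MYC included, with a mean of at least 1 CPM over the 12 libraries. They were NOB1 (0.104), APEX1 (0.106), IFRD2 (0.111), OBSL1 (0.112) and OXLD1 (0.121), where the spread of MYC itself was 0.647. NOB1, for example, was at means of 34.29 and 30.47 CPM in EW8 vehicle and doxycycline libraries and 89.05 and 62.27 CPM in those of TC71. For MYCN, whose own spread was 1.99, they included MEGF6 (0.677), IGFBPL1 (0.77), KLRG1 (0.794) and UNCX (0.794).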

How the data were processed

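RNA was sequenced from 12 libraries (2 lines, vehicle or doxycycline, 3 each). The deposited values are whole-number counts per gene. Per the file headers and the study's methods, the authors aligned reads to hg38 with STAR and counted them over exons of GENCODE release 29 with featureCounts 2.0.1, singly per mate and without strand, dropping reads with several locations or genes. The kit keeps strand but the counting did not use it, so reads in bases that a member shares with an antisense gene were assigned to neither. These overlaps were 98 bases for MYCN with MYCNOS and 226 bases for MYCL with MYCL-AS1, and these antisense genes had at most 6 and 7 counts in any library. MAX shared 184 bases with ENSG00000259118 and MXI1 205 bases with ENSG00000228417, which had at most 2 and 0 counts. The submitters' processing notes also name FastQC, MultiQC and edgeR. The deposited exon length, a value of the authors' annotation, was used for RPKM.

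Symbols were matched for 58207 genes (99.1%). The filter of edgeR on low counts (filterByExpr) kept 21013 genes holding 99.95% of counts. All 12 libraries entered 1 quasi-likelihood fit in edgeR 4.0.16 (R 4.3.3) with 4 groups and TMM scaling (common dispersion 0.0143). The study used DESeq2, run here as an alternative (1.42.0). SE is the log2 fold change over the root of F, and intervals are at 95%. The script was tested on simulated data. Alternatives were scaling, filters, tool, samples in the fit, a replicate block, leaving out each library, and a fold limit. The window of 1000 bases for motifs was chosen after the shorter windows were seen. The members and lists were chosen with earlier results of these data known. Named genes were all members, JUN and FOS, and from each list and line the 3 largest rises and falls among genes that passed with at least 1 CPM in a group, and the 5 genes most like MYC and MYCN. No proteins or promoter of MYC were printed, and a few items that these rules name are not reported here.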

Additional observations from a re-analysis of the deposited data

Results flagged for a closer look

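The doxycycline response differed between the lines, by the interaction term of the edgeR fit, for 4 of the 10 genes. MYC responded by a log2 of -0.46 more in TC71 than in EW8 (adjusted p = 0.00933), with all 3 TC71 doxycycline libraries below the vehicle libraries and overlapping ranges in EW8. MXD4 responded by 1.01 more in TC71 (adjusted p = 0.000611), again with separate ranges in TC71 and overlapping ones in EW8. The difference was -0.31 for MAX (adjusted p = 0.0434), with separate ranges in EW8 and overlapping ones in TC71, and -0.22 for NPM1 (adjusted p = 0.0233), which fell in both lines. JUN and FOS, the induced genes, were also induced more in TC71, by 0.73 (adjusted p = 0.00217) and 2.21 (adjusted p = 6.41e-12) on the log2 scale, and their part in the differences was not tested. Groups of 3 libraries were not searched for outlying values.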

How the results depend on the processing

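Of 979 values of single members under the alternatives, 946 kept their direction and their side of the threshold, 15 newly passed, 14 no longer passed and 4 changed sign without passing. The 4 were the line difference for MXD1 without EW8 vehicle replicate 2 (0.07) and without TC71 doxycycline replicate 3 (0.03), in a range from -0.20 to 0.07 over the libraries left out, MXD4 in EW8 without EW8 vehicle replicate 1 (-0.04, range -0.04 to 0.18) and ODC1 in EW8 with library size alone (-0.00). Of 1957 values of other named genes, 1930 kept both, and 11 changed sign without passing. Upper-quartile scaling and library size alone did so for B2M in TC71 (-0.05 and -0.03), NOP10 in EW8 (-0.02 and -0.04), PABPC1 in TC71 (-0.05 and -0.03) and RRP12 in TC71 (-0.03 and -0.01). Leaving out 1 library did so for PABPC1 in TC71 (-0.03 to 0.08, lowest without TC71 vehicle replicate 1), NOP2 in EW8 (-0.42 to 0.04, highest without EW8 vehicle replicate 2) and SRM in EW8 (-0.13 to 0.02, highest without EW8 doxycycline replicate 3). The number of members higher in EW8 (2) was 4 with at least 10 counts in every library or with only the 2 groups, which added MXI1 and ODC1, and 2 to 4 when 1 library was left out (4 without TC71 vehicle replicate 1). For the difference between the lines, leaving out 1 library gave 1 to 2 members higher and 1 to 5 lower, and for TC71 against EW8 with vehicle 1 to 2 lower. That filter removed MYCN and MYCL and left 0 members lower between the lines in either condition. The fold limit left 1 member higher and 1 lower in EW8, 1 lower in TC71, 0 lower for the difference between the lines, and 3 higher between the lines in either condition. Among growth genes it left 10 higher and 1 lower in EW8, 12 and 6 in TC71, and 2 and 3 for the difference. That difference had 13 genes higher and 16 lower. The higher were 5 with at least 10 counts and 5 to 16 without 1 library. The lower were 32 with upper-quartile scaling, 27 with library size alone, 41 with at least 10 counts, 28 with DESeq2 and 12 to 54 without 1 library. The cause was not tested. Scaling moved the median of all genes to at most -0.10. Counts not divided by exon length gave MYCL shares of 0.366% and 0.264% in EW8 vehicle and doxycycline and 0.281% in TC71 doxycycline libraries, and 99.7% for MYC in the last.

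Libraries with the same replicate number in vehicle and doxycycline did not deviate together (r from -0.03 to 0.01). With a replicate block the counts of members were unchanged (2 higher and 3 lower in EW8, 3 and 4 in TC71), growth genes were 22 and 76 in EW8 and 21 and 85 in TC71, and no call of a member changed. Depth limits MYCN and MYCL, which had at most 199 and 52 counts in a library.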
